A study of Mus musculus with 20 samples.

Results

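The effect of Trim33 loss on gene expression in the presence of a Myc vector was followed in 6 RNA-seq libraries, chosen by their labels among the 20 libraries of the series: 4 from Trim33-KO cells with Myc and 2 from Trim33-WT cells with Myc. All were prepared from p19/Nras cells, murine liver cancer cells that arose from an Nras-driven tumor in mice lacking p19/Arf, so that Nras expression and the loss of p19/Arf are shared by every group. Trim33 was targeted by CRISPR in a pair of knockout lines, KO1 and KO2, while Trim33-WT cells received a control guide, and no drug was given. Each line had 2 libraries per vector. The groups are called WT Myc, KO1 Myc and KO2 Myc below, and the corresponding libraries with an empty vector WT Ctrl, KO1 Ctrl and KO2 Ctrl. Whether a line is 1 clone, and whether libraries of a group came from separate cultures, is not given in the sources used here, so that p-values measure the spread between these libraries, which may be technical. Total counts ranged from 15198010 to 17949430 in the 6 libraries. All 13107 genes of the table were tested.

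Trim33 encodes a nuclear ubiquitin ligase of the TIF1 family, which also contains Trim24 and Trim28, and is known as a partner of Smad proteins in TGF-beta signaling. Myc is a transcription factor that drives ribosome biogenesis, metabolism and entry into S phase. E2f factors and the DREAM complex control genes for DNA replication and mitosis. Interferon-stimulated genes are switched on when interferons bind their receptors and make up much of the antiviral response of liver cells.

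Trim33 mRNA was examined first in every library. Levels are given as CPM, the read count scaled to library size with edgeR's TMM factors, which does not correct for gene length. Trim33 (Entrez 94093, mm9, chromosome 3, 103083216 to 103162691, plus strand) stood at 131 and 155 CPM in the WT Myc libraries, at 185 and 193 in those labelled KO1 Myc, and at 124 and 125 in those labelled KO2 Myc. The libraries labelled KO1 Myc were thus above both WT Myc libraries and those labelled KO2 Myc below both. Taking the mean of both lines, the log2 fold change (log2FC, KO against WT) of Trim33 was 0.10 (standard error 0.0600) and was not called (edgeR's quasi-likelihood test with Benjamini-Hochberg adjustment, adjusted p = 0.174). It was 0.40 for KO1 Myc alone (edgeR, adjusted p = 0.000243) and −0.20 for KO2 Myc alone (edgeR, adjusted p = 0.0263). Leaving out replicate 1 of WT Myc gave −0.01 (edgeR, adjusted p = 0.883), and leaving out replicate 2 gave 0.23 (edgeR, adjusted p = 0.00163). Trim33 mRNA was thus raised rather than lowered in KO1 Myc. With the Ctrl vector the log2FC of Trim33 in the mean of both lines was −0.65. The log2FC under Myc minus that under Ctrl was 0.75 and was called (edgeR, adjusted p = 2.46e-06). A read count does not show whether protein was made, so it cannot decide whether a knockout label is right. The paper shows immunoblots of its Trim33-WT and Trim33-KO cell lines. The text writes of the libraries as labelled. Protein was not measured here.

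Genes present in some lines and absent in others were used as a check of the labels. A gene was called absent in a group with at most 3 counts in each library and present with at least 30 in each. Of 31 genes present in WT Ctrl and absent in both KO Ctrl groups, 22 were present in WT Myc, 22 were absent in KO1 Myc and 27 in KO2 Myc, and 0 were present in either. Of 19 genes present in both KO Ctrl groups and absent in WT Ctrl, 13 were absent in WT Myc, while 13 were present in KO1 Myc and 15 in KO2 Myc. The separation of KO from WT libraries thus followed the labels.

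The numbers of the KO lines did not, in a check chosen after the data were seen. Of 19 genes absent in KO1 Ctrl and present in KO2 Ctrl, 13 were present and 0 absent in the libraries labelled KO1 Myc, while 0 were present and 19 absent in those labelled KO2 Myc. Of 17 genes with the opposite pattern, 0 were present and 11 absent in KO1 Myc, while 13 were present and 0 absent in KO2 Myc. Over 13107 genes, which are not independent replicates, Pearson's r of log2(CPM + 1) was 0.986 between KO1 Myc and KO2 Ctrl and 0.974 between KO1 Myc and KO1 Ctrl. It was 0.985 between KO2 Myc and KO1 Ctrl and 0.969 between KO2 Myc and KO2 Ctrl. The difference KO1 minus KO2 with the Ctrl vector had r = −0.75 with the same difference under Myc. No library was relabelled. The mean of both lines does not depend on which KO line is which, whereas values given below for KO1 Myc or KO2 Myc alone rest on the libraries as labelled.

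**Figure D1:**
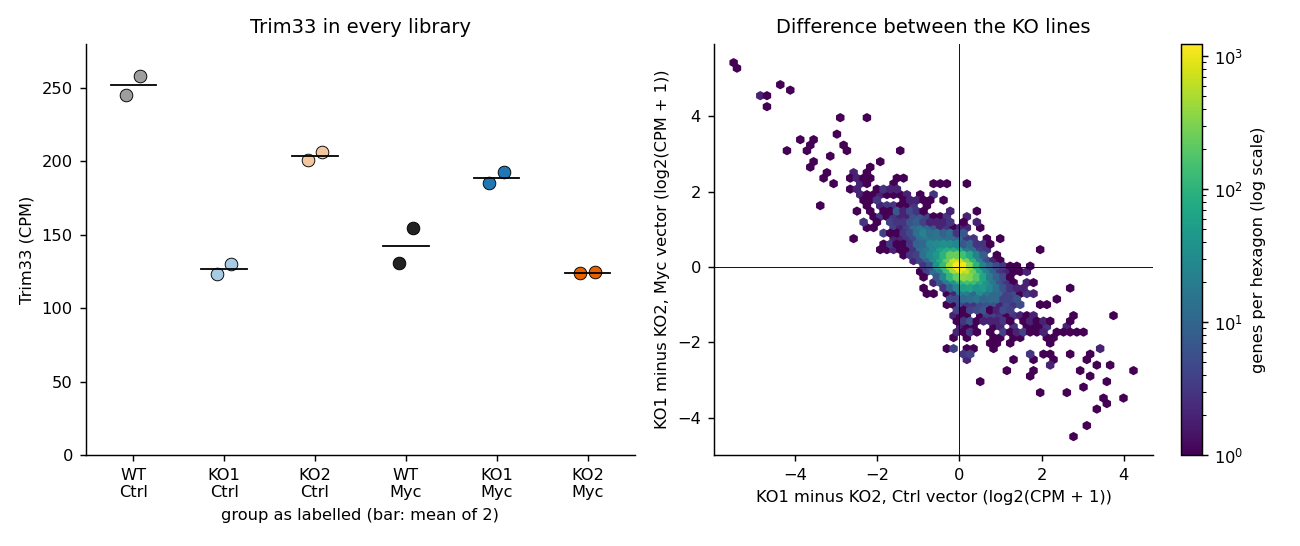
Left, Trim33 CPM in each of the 12 libraries by labelled group, with a bar at the mean of 2: the libraries labelled KO1 Myc lie at 185 and 193, above WT Myc at 131 and 155. Right, the difference KO1 minus KO2 of log2(CPM + 1) per gene with the Ctrl vector (x axis) and the Myc vector (y axis), where most genes far from 0 have opposite signs (r = −0.75).

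Myc mRNA (Entrez 17869) was 456 and 458 CPM in WT Myc, 621 and 646 in KO1 Myc and 459 and 499 in KO2 Myc, and its log2FC of 0.27 was called (standard error 0.0477, edgeR, adjusted p = 0.000235). Every KO library was above both WT libraries, but the call rested on KO1 Myc, since KO2 Myc alone had a log2FC of 0.07 (edgeR, adjusted p = 0.314), and it was lost with the KO libraries as 1 group (0.122). With the Ctrl vector Myc stood at 433 and 439 in WT and from 186 to 219 in the 4 KO libraries. The libraries of WT cells with and without the Myc vector were therefore close in counted Myc mRNA. Whether transcripts of the vector are counted under this gene is not given in the sources used here. The paper describes the cells with the Myc vector as overexpressing Myc and shows immunoblots of them, while protein was not measured here.

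In the mean of both lines, 4433 genes (33.8% of those tested) were called at an adjusted p-value below 0.01. Of these, 2097 were higher in Trim33-KO cells (16.0% of all genes tested) and 2336 were lower (17.8%). The median absolute log2FC of the called genes was 0.46, and 917 of them, 353 higher and 564 lower, had an absolute log2FC of at least 1. In 3925 of the called genes the 4 KO libraries lay wholly above or wholly below the 2 WT libraries. The same libraries gave the calls, so that this count is no separate support. Its share over all genes tested is not given here. For KO1 Myc alone 3291 genes were called, and for KO2 Myc alone 4614. Both lines were set against the same WT Myc libraries. KO1 Myc and KO2 Myc also differed from each other, with 2423 genes called between them. When the 4 KO libraries were fitted as 1 group, so that the difference between lines counted as spread, 1321 genes were called, 676 higher (5.16%) and 645 lower (4.92%), and all 1321 were also called in the mean of both lines. The latter count rests on 2 lines against 1 WT line. The fit took its spread from all 12 libraries, although the WT Myc replicates differed most from each other, relative to counting noise. With only the 6 Myc libraries in the fit, 3069 genes were called, 1409 higher and 1660 lower. DESeq2 called 3760 genes, 1824 higher and 1936 lower.

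The 12 largest rises among genes called in each line, with all KO libraries above both WT libraries and a mean of at least 5 CPM, were found in genes nearly silent in WT Myc. Shank3, a scaffold protein of excitatory synapses, had 0 counts in both WT Myc libraries and 8.26, 8.15, 8.60 and 8.89 CPM in the KO libraries, at least 45.5-fold higher (floor of 3 counts per library). Dntt, the template-independent DNA polymerase of lymphocytes, had 1 count in each WT Myc library against 18 and 17.8 CPM in KO1 Myc and 3.20 and 2.98 in KO2 Myc. The summed counts differed 167-fold (95% exact counting interval 46.0 to 1379). Both KO lines were far above WT, though they did not overlap with each other. Slc5a7, the choline transporter of cholinergic neurons, was 0.130 and 0 CPM in WT Myc, 3.90 and 5.07 in KO1 Myc and 27.8 and 27.9 in KO2 Myc (265-fold, counting interval 73.2 to 2190). The sulfotransferase Chst15 was 61.2-fold higher (counting interval 23.7 to 225) and Fndc4 56.8-fold (24.2 to 175), with KO1 Myc and KO2 Myc at similar levels.

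Tnfrsf26, a TNF receptor family gene, rose from 1.89 and 1.77 CPM to between 59.0 and 66.2 in the 4 KO libraries (log2FC 5.09, standard error 0.101, edgeR, adjusted p = 3.56e-15). Uchl1, a ubiquitin hydrolase abundant in neurons, had a log2FC of 5.48, and Plcd1, a phospholipase C, one of 5.40. Prkcb, a protein kinase C, had 5.2, Cdc42ep3, an effector of Cdc42, 4.78 and the zinc finger gene Zfp532 4.63. Gm364 (X chromosome) separated the lines: 0.520 and 0.710 CPM in WT Myc, 128 and 129 in KO1 Myc, and 7.12 and 7.84 in KO2 Myc. All 12 genes were also called higher with the Ctrl vector, but Slc5a7 and Gm364 were not called when the 4 KO libraries formed 1 group (edgeR, adjusted p = 0.0133 and 0.0257).

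**Figure D2:**
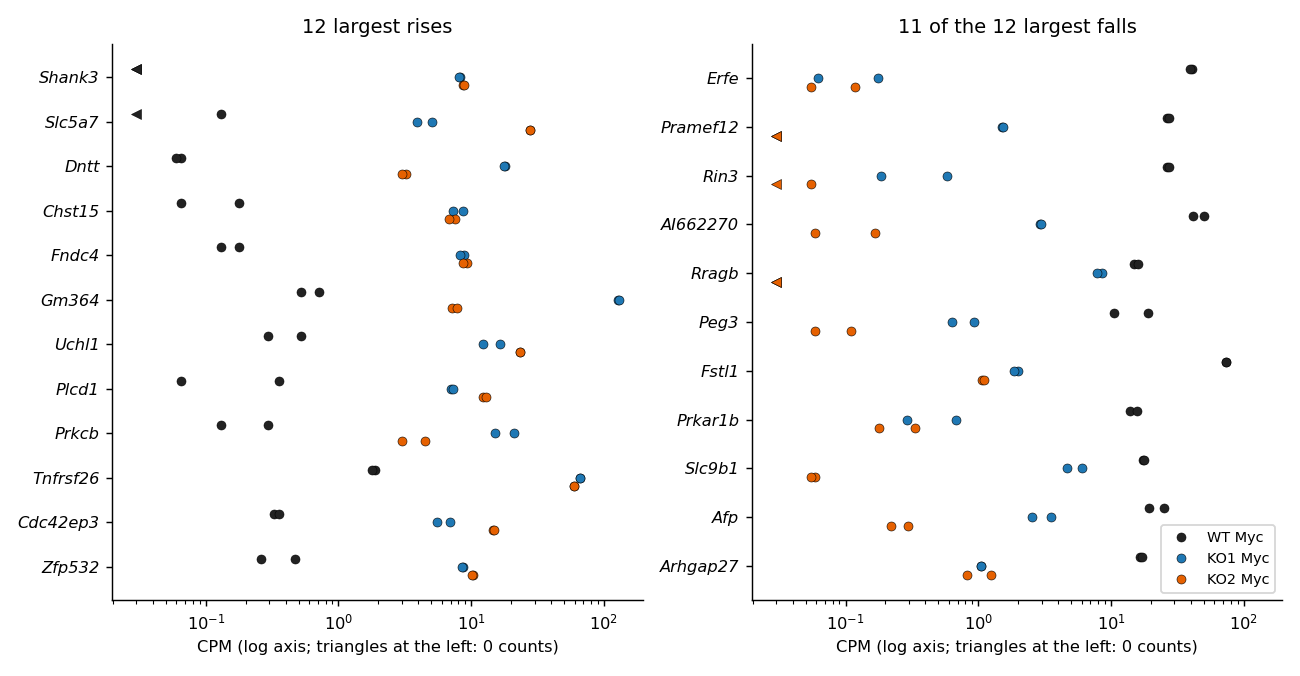
CPM (log axis) of the 12 most raised genes and 11 of the 12 most lowered in each of the 6 Myc libraries, 2 points per group, with triangles at the left edge for 0 counts. Black points (WT Myc) lie apart from the coloured points (KO1 Myc, KO2 Myc) in every gene, as the rule that chose the genes required. The KO lines lie apart from each other in several, such as Gm364, Slc5a7, Dntt, Pramef12, AI662270, Rragb, Slc9b1 and Afp.

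Among the 12 largest falls, Erfe, the erythroblast hormone that lowers hepcidin, went from 40.5 and 39.6 CPM in WT Myc to between 0.0552 and 0.174 in the KO libraries (391-fold lower in summed counts, counting interval 189 to 975). Fstl1, a secreted BMP antagonist, was 73.6 and 74.1 in WT Myc and between 1.07 and 1.98 in the 4 KO libraries (log2FC −5.67, standard error 0.0938, edgeR, adjusted p = 4.36e-16). Arhgap27 was 16.6 and 17.2 against 0.829 to 1.25 (log2FC −4.01). Prkar1b, a regulatory subunit of protein kinase A, was 13.8 and 15.7 against 0.178 to 0.679, and the imprinted zinc finger gene Peg3 was 10.6 and 18.9 against 0.0593 to 0.927. In these 5 genes the KO and WT libraries were far apart in both lines, although the choice of genes required a separation in both.

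Other falls were deeper in KO2 Myc. Pramef12 was 26.6 and 27.6 CPM in WT Myc, 1.51 and 1.54 in KO1 Myc, and had 0 counts in KO2 Myc (at least 158-fold lower). Rin3, a Rab5 exchange factor, was 26.3 and 27.3 in WT Myc, 0.581 and 0.185 in KO1 Myc, and 0 and 0.0552 in KO2 Myc. AI662270 had 49.9 and 41.6 in WT Myc, 2.91 and 2.97 in KO1 Myc and at most 0.166 in KO2 Myc. Afp, the fetal hepatocyte protein, was 25.1 and 19.5 in WT Myc, 3.55 and 2.53 in KO1 Myc and 0.297 and 0.221 in KO2 Myc. Rragb, a Rag GTPase of mTORC1 signaling (X chromosome), was 15 and 15.9 in WT Myc and 8.49 and 7.91 in KO1 Myc, with 0 counts in KO2 Myc (at least 90.0-fold lower). Slc9b1, a sodium-proton exchanger, was 17.5 and 17.9, then 6.05 and 4.63, then 0.0593 and 0.0552. Rragb, Slc9b1 and Afp were not called with the KO libraries as 1 group (edgeR, adjusted p = 0.330, 0.142 and 0.0133). Grem1, an antagonist of BMP ligands, was 12.3 and 13.1 in WT Myc, 1.45 and 0.865 in KO1 Myc, and had 0 counts in KO2 Myc (at least 73.8-fold lower).

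Interferon-stimulated genes were lower in Trim33-KO cells. Of 39 listed genes that were tested, 28 were called lower and 2 higher, against 17.8% and 16.0% of all genes, and their median log2FC was −0.86 against −0.01 over all genes. The counts were 25 lower for KO1 Myc alone (median −1.26), 24 for KO2 Myc alone (−0.92), 16 with the KO libraries as 1 group and 24 to 28 when any library was left out. Relative to the mean of WT Myc, the median level of the list was −1.20 and −1.03 (log2) in KO1 Myc and −0.90 and −0.92 in KO2 Myc. It was −0.73 and −0.70 in WT Ctrl, so that WT Myc lay above all the other groups.

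Oasl1, which restrains Irf7 translation, was 7.74 and 6.21 CPM in WT Myc and between 0.119 and 0.494 in the KO libraries (log2FC −4.73, standard error 0.232, edgeR, adjusted p = 1.17e-10). Rsad2, which encodes the antiviral protein viperin, was 2.54 and 1.36 in WT Myc and 0.166 to 0.247 in the KO libraries (log2FC −3.18). Igtp, an immunity-related GTPase, was 0.715 and 1.24 against at most 0.166, an 11.3-fold difference in summed counts (counting interval 4.66 to 33). The RNA sensor Ifih1 was 1.56 and 1.48 in WT Myc, 0.0581 and 0 in KO1 Myc and 0.949 and 0.718 in KO2 Myc, where it was not called (log2FC −0.87). Cxcl10, a chemokine for T cells, was 23.7 and 18.5 in WT Myc and 2.79 to 4.59 in the KO libraries (log2FC −2.63, standard error 0.136, edgeR, adjusted p = 2.27e-10). In each of these genes but Ifih1 the log2FC was called in both lines. The 2 members called higher, singled out after their values were seen, were Ifit2 (log2FC 1.72) and the kinase gene Eif2ak2 (0.31).

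The upstream sequence is shown for the 4 interferon-stimulated genes with the largest falls that held, in the 250 bases before the start, a match to the core of the interferon-stimulated response element, a promoter motif of this group. The letters searched were GAAA, any 2 bases and GAAA, on both strands, in RefSeq promoters of GRCm38.p6, a later build than the mm9 of the counts, from 250 bases before to 50 after the gene start, taking the first start listed. A promoter was at hand for 9796 of 13107 genes. Each sequence below runs 5′ to 3′ along the gene and ends 1 base before its start, with the matches in capitals.
Igtp: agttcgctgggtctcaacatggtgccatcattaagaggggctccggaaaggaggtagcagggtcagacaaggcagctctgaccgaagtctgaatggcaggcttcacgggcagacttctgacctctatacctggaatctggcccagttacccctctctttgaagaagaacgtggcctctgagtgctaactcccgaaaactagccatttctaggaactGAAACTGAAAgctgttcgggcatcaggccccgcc
Rsad2: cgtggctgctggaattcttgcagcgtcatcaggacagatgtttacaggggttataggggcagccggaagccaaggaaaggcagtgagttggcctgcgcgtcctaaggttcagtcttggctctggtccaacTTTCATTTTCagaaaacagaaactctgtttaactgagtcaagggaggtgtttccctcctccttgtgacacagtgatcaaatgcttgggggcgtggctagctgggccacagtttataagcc
Cxcl10: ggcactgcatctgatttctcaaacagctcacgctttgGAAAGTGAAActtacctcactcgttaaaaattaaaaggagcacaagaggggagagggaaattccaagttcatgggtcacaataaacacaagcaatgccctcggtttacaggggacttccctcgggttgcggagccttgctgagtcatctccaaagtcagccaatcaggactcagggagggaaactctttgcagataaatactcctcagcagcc
Ifit3: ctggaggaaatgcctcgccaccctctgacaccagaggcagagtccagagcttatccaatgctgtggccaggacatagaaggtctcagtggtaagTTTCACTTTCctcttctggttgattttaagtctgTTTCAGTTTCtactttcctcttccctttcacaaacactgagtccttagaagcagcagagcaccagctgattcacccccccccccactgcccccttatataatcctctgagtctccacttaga
These windows are chr11:58199306-58199555 on the plus strand for Igtp, chr12:26456453-26456702 on the minus strand for Rsad2, chr5:92348890-92349139 on the minus strand for Cxcl10 and chr19:34583279-34583528 on the plus strand for Ifit3. The match lay 34 bases before the start in Igtp, 120 in Rsad2 and 213 in Cxcl10, and 2 matches lay 156 and 122 bases before it in Ifit3, a gene of the Ifit antiviral family (log2FC −2.29). Of the 33 interferon-stimulated genes with a promoter, 18 (54.5%) held a match, as did 14 of the 23 called lower (60.9%). Of all tested genes with a promoter 2.99% held a match, of all genes called lower 4.47% and of all called higher 2.42%. A match is a description of letters and not of a bound site.

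In the lists of MHC class I antigen presentation and of NF-kB and TNF signaling, 10 of 20 and 21 of 42 members were called lower, against 3 and 9 with the KO libraries as 1 group. In the MHC class I list 0 were higher (median −0.35). The heavy chain gene H2-D1 was 124 and 111 CPM in WT Myc and 49.6 to 56.2 in the KO libraries (log2FC −1.17, standard error 0.0630, edgeR, adjusted p = 3.49e-10). H2-K1 was 38.0 and 33.4 in WT Myc, 11.6 and 12.6 in KO1 Myc and 24.9 and 25.9 in KO2 Myc, and the peptide transporter gene Tap2 had a log2FC of −3.14. The class I genes are a family of near copies, between which reads can be split. In the NF-kB and TNF list 4 were higher (median −0.43). The neutrophil chemokine Cxcl5 was 3.97 and 3.37 in WT Myc and 0.652 to 1.05 in the KO libraries, and the gelatinase Mmp9 1.5 and 1.48 against 0.178 to 0.331. Of 25 AP-1 and immediate-early genes, 9 were lower and 6 higher, among them Junb with a log2FC of −0.71 and the orphan receptor Nr4a2 with 1.59. Of 28 genes of Nras and MAPK feedback, 9 were lower and 6 higher. The MAPK phosphatase Dusp4 went from 117 and 128 CPM to between 46.8 and 77.2, and Phlda1 had a log2FC of −0.79.

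**Figure D3:**
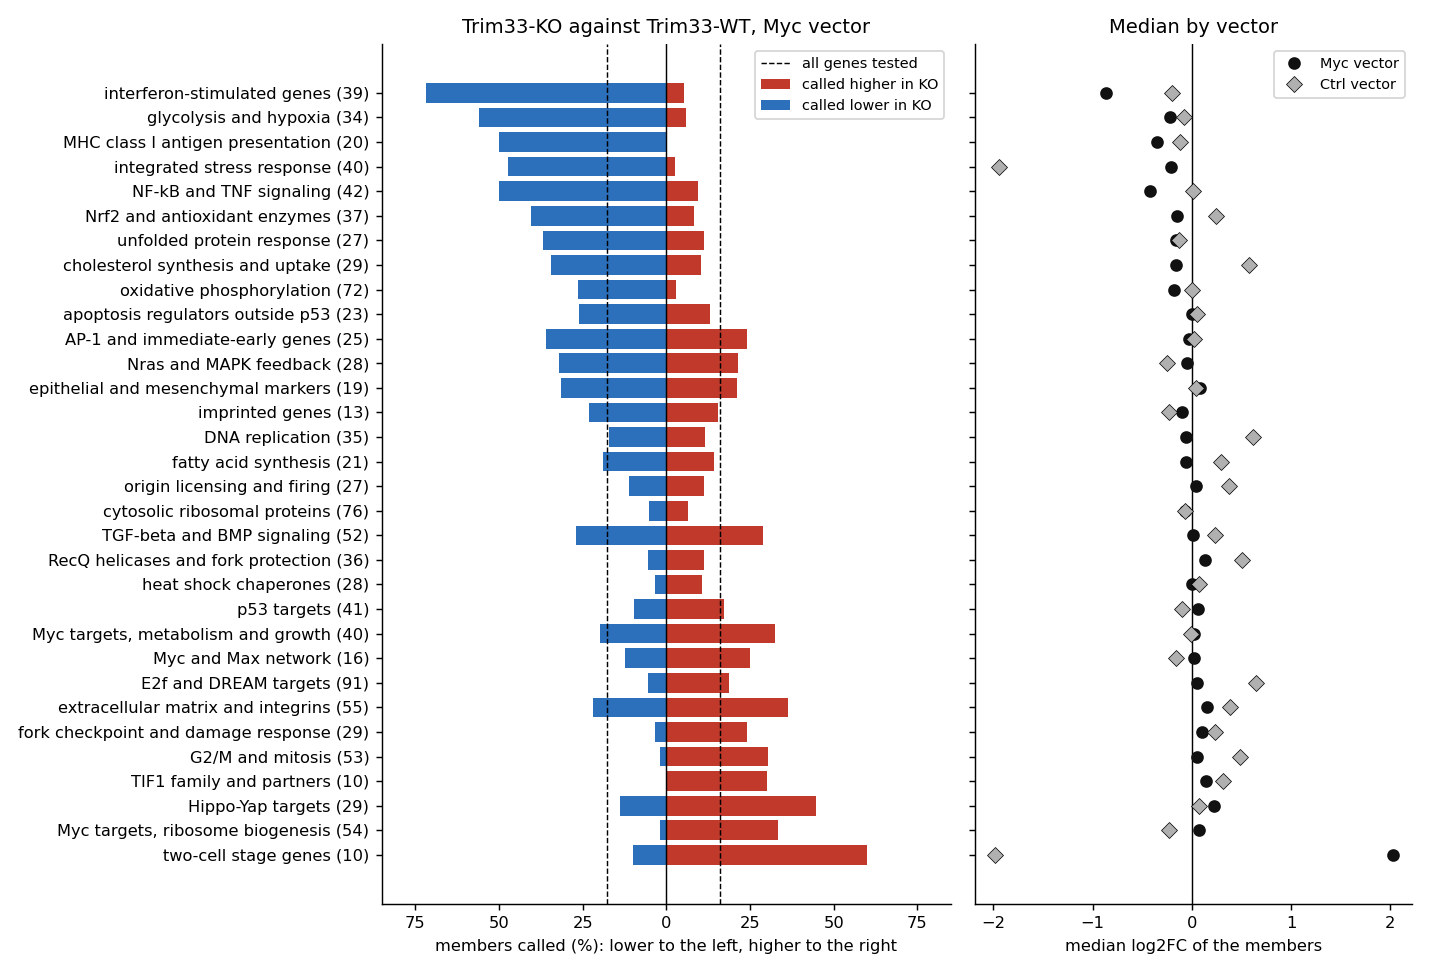
Left, share of the tested members of each gene list called higher (red, to the right) and lower (blue, to the left) in Trim33-KO against Trim33-WT under Myc, with the number tested in parentheses and dashed lines at the shares of all genes, 16.0% and 17.8%. Right, median log2FC of each list under Myc (circles) and Ctrl (diamonds): the interferon list lies at −0.86 under Myc, and the DNA replication list at −0.06 under Myc and 0.62 under Ctrl.

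In the lists of stress and energy metabolism taken up below, more members were called lower than higher, but many were not called. The heat shock chaperone list did not share this, with 3 of 28 members higher (10.7%), 1 lower (3.57%) and 24 not called. Of 40 genes of the integrated stress response, 19 were called lower and 1 higher (median −0.21). Gdf15, a secreted stress hormone, was 533 and 364 CPM in WT Myc, 174 and 163 in KO1 Myc and 89.9 and 105 in KO2 Myc (log2FC −1.81, standard error 0.0989, edgeR, adjusted p = 4.57e-10). The stress-induced chromatin protein gene Nupr1 had a log2FC of −0.87. With the KO libraries as 1 group, 0 members of this list were higher and 1 was lower. Of 27 genes of the unfolded protein response, 10 were lower and 3 higher, with Xbp1 at −0.73 and Selenos at −0.80. Of 34 genes of glycolysis and hypoxia, 19 were lower and 2 higher (median −0.22). Pfkp, a phosphofructokinase, was 82.9 and 84.5 in WT Myc and 30.5 to 45.1 in the KO libraries (log2FC −1.16). Pdk1, which inhibits pyruvate dehydrogenase, had −0.84, the oxygen sensor Egln3 −1.19 and Ankrd37 −1.25. Of 72 genes of oxidative phosphorylation, 19 were lower and 2 higher (median −0.18), with Ndufa4 at −0.56 and the complex II subunit gene Sdhc at −0.40. Of 37 Nrf2 and antioxidant genes, 15 were lower and 3 higher, Osgin1 among them at −1.06. Of 29 genes of cholesterol synthesis and uptake, 10 were lower and 3 higher. The lines differed here, with 3 lower and 4 higher in KO1 Myc alone (median −0.00463). In KO2 Myc alone 14 were lower and 3 higher (median −0.32). The sterol reductase gene Tm7sf2 had a log2FC of −0.89 and the sterol carrier gene Stard4 0.59. Of 21 fatty acid synthesis genes, 4 were lower and 3 higher, shares near those of all genes, with the acetate ligase gene Acss2 at −1.46 and the acetyl-CoA carboxylase gene Acaca at 0.72. With the KO libraries as 1 group, 4.92% of all genes were called lower. Members called lower in that fit were 3 of 27 of the unfolded protein response and 8 of 34 of glycolysis and hypoxia. Counts near the share of all genes were found in oxidative phosphorylation (4 of 72) and the Nrf2 list (2 of 37). The same held for the cholesterol list (2 of 29) and the fatty acid list (1 of 21).

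The DNA replication list showed no change in 1 direction under Myc. Of its 35 genes, 4 were called higher and 6 lower, and 25 were not called (median −0.06). The shares of 11.4% and 17.1% are set against 16.0% and 17.8% of all genes. The median level of the list in the KO Myc libraries ranged from −0.13 in KO1 Myc to 0.03 in KO2 Myc (log2, relative to the mean of WT Myc). Rfc1, the large subunit of the clamp loader, rose from 130 and 150 CPM to between 198 and 225 (log2FC 0.62, standard error 0.0604, edgeR, adjusted p = 5.29e-07). Rpa3, a subunit of the single-strand binding protein RPA, fell from 28.0 and 25.4 to between 15.7 and 18.6 (log2FC −0.62, standard error 0.0835, edgeR, adjusted p = 1.71e-05). The nuclease gene Dna2 had a log2FC of 0.42 and Rnaseh2a, which removes RNA from DNA, one of −0.28. Dna2 had a log2FC of 0.02 in KO1 Myc alone and 0.83 in KO2 Myc alone. Both calls were lost without replicate 1 of WT Myc (edgeR, adjusted p = 0.165 and 0.0531). Only 2 members of the list were called with the KO libraries as 1 group, 3 with the 6 Myc libraries alone in the fit and 3 without replicate 2 of KO1 Myc or replicate 1 of KO2 Myc. Of 27 genes of origin licensing and firing, 3 were higher and 3 lower. Gins1, a subunit of the replicative helicase, was 34.7 and 31.5 in WT Myc and 22.7 to 24.4 in the KO libraries.

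Single replication genes had values close to WT. The helicase gene Mcm2 was 154 and 172 CPM in WT Myc and 174 to 187 in the KO libraries (log2FC 0.13, edgeR, adjusted p = 0.042), and Mcm5 was 159 and 175 against 149 to 166 (−0.10, adjusted p = 0.150 from edgeR). Cdc6, the licensing ATPase, was 42.7 and 51.3 against 39.4 to 44.4 (−0.16, edgeR, adjusted p = 0.117), and the sliding clamp gene Pcna 197 and 189 against 172 to 178 (−0.13, edgeR, adjusted p = 0.0252). The libraries of Pcna did not overlap, yet the gene did not pass the threshold. The ribonucleotide reductase gene Rrm2 was called lower, at 135 and 166 in WT Myc and 116 to 137 in the KO libraries (log2FC −0.27, edgeR, adjusted p = 0.00422). The groups overlapped, and the call was lost without replicate 2 of WT Myc (edgeR, adjusted p = 0.122), replicate 1 of KO1 Myc (0.0185) or replicate 2 of KO2 Myc (0.0136), and with the KO libraries as 1 group (0.258). The helicase gene Recql had a log2FC of −0.03 (edgeR, adjusted p = 0.816).

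The E2f and DREAM target list moved little. Of 91 genes, 17 were called higher (18.7%), 5 lower (5.49%) and 69 not at all (median 0.05). The median was −0.04 in KO1 Myc alone and 0.10 in KO2 Myc alone. With the KO libraries as 1 group, 2 members were called. The count of called members was 14 without replicate 1 of WT Myc or replicate 2 of KO1 Myc, and 35 without replicate 2 of WT Myc. E2f1 stood at 41.6 and 42.9 CPM in WT Myc and 40.6 to 46.8 in the KO libraries (log2FC 0.04, standard error 0.0679, edgeR, adjusted p = 0.645). E2f4, its repressive relative, was 95.3 and 86.9 against 84.5 to 90.2 (log2FC −0.07, standard error 0.0568, edgeR, adjusted p = 0.363). Rbl1, the pocket protein p107 gene, was not called either (log2FC 0.03, edgeR, adjusted p = 0.753). Dut, which removes dUTP from the nucleotide pool, fell from 263 and 232 CPM to between 144 and 170 (log2FC −0.67, standard error 0.0526, edgeR, adjusted p = 4.22e-08). The mitotic kinesin gene Kif20a rose from 78.4 and 94.1 to between 120 and 146 (log2FC 0.62, standard error 0.0632, edgeR, adjusted p = 8.17e-07). E2f8 had a log2FC of 0.51, with a call lost without replicate 1 of WT Myc (edgeR, adjusted p = 0.0278).

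Mitotic and ribosome biogenesis genes were called higher more often than lower. Of 53 genes of G2/M and mitosis, 16 were higher and 1 lower, although the median was 0.06 and 1 gene was called with the KO libraries as 1 group. The proliferation marker Mki67 went from 335 and 417 CPM to between 496 and 585 (log2FC 0.51), the mitotic factor Foxm1 from 135 and 160 to between 172 and 235 (0.45) and the kinetochore gene Cenpf from 103 and 123 to between 136 and 183 (0.44). Of 54 Myc targets of ribosome biogenesis, 18 were higher and 1 lower (median 0.07), and 10 stayed higher with the KO libraries as 1 group. Tcof1, a nucleolar regulator of rRNA synthesis, rose from 125 and 135 to between 197 and 217 (log2FC 0.67, standard error 0.0514, edgeR, adjusted p = 2.85e-08). Wdr36 and Heatr1, factors of small subunit assembly, each had a log2FC of 0.60, and the RNA polymerase I subunit gene Polr1a had 0.57. Of 40 Myc targets of metabolism and growth, 13 were higher and 8 lower. Of 76 cytosolic ribosomal protein genes, 5 were higher and 4 lower (median −0.07). Of 16 genes of the Myc and Max network, 4 were higher and 2 lower, with the Myc relative Mlxip at 0.69 and the histone acetyltransferase cofactor Trrap at 0.55.

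Of 29 genes of the fork checkpoint and damage response, 7 were higher (24.1%) and 1 lower (3.45%), against 16.0% and 17.8% of all genes. As 1 KO group, 1 was higher and 1 lower. KO1 Myc alone had 2 higher and 1 lower, and KO2 Myc alone 8 and 1. The checkpoint kinase Atr was 34.4 and 51.1 CPM in WT Myc and 62.2 to 69.0 in the KO libraries (log2FC 0.60), and the DNA repair kinase Prkdc had 0.40. Of 36 genes of RecQ helicases and fork protection, 4 were higher (11.1%) and 2 lower (5.56%), both below the shares of all genes. As 1 KO group, 1 of these was higher and 0 were lower. Of 41 p53 targets, 7 were higher (17.1%) and 4 lower (9.76%), against 16.0% and 17.8% of all genes (median 0.06). The balance differed by line, with 11 higher and 6 lower in KO1 Myc alone and 6 higher and 10 lower in KO2 Myc alone. As 1 KO group, 0 were higher and 2 lower. The 7 called higher are not named here. The 4 called lower included the cell cycle inhibitor Cdkn1a, from 156 and 134 to between 76.4 and 100 CPM (log2FC −0.71, standard error 0.0622, edgeR, adjusted p = 1.62e-07), and Psrc1 at −1.0, Ptp4a3 at −0.90 and Ddit4 at −0.58. Cdkn2a, the locus of p16 and p19/Arf, was 29.7 and 24.3 against 23 to 30.7 (log2FC 0.03, edgeR, adjusted p = 0.810), and gene counts do not tell its transcripts apart. Nras was 1089.95 and 915 in WT Myc and 865 to 1028 in the KO libraries (−0.10, edgeR, adjusted p = 0.171).

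Within the TIF1 family, Trim24 rose from 73.9 and 72.9 CPM to between 108 and 115 in the 4 KO libraries (log2FC 0.60, standard error 0.0477, edgeR, adjusted p = 4.46e-08). Trim28 stood at 406 and 406 against 390 to 418 (log2FC −0.01, edgeR, adjusted p = 0.930, and a log2FC of 0.000433 with upper-quartile scaling). Of 10 genes of this family and its partners, 3 were called higher and 0 lower, the others being the heterochromatin protein genes Cbx5 (0.34) and Cbx1 (0.19). Cbx5 was not called without replicate 1 of WT Myc (edgeR, adjusted p = 0.0327), and Cbx1 was lost when any of the 6 libraries was left out (edgeR, adjusted p from 0.0112 to 0.0476).

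Of 52 TGF-beta and BMP genes, 15 were higher and 14 lower (median 0.01), against 2 and 8 with the KO libraries as 1 group. Ligands and antagonists were among the largest changes. Bmp6 was 7.42 and 7.04 CPM in WT Myc, with 1 count in each KO1 Myc library and 0 in KO2 Myc (247-fold lower in summed counts, counting interval 67.5 to 2049), and the antagonists Grem1 and Fstl1 were lower as described above. Of 29 Hippo-Yap genes, 13 were higher and 4 lower (median 0.22), but Ccn2 and Ankrd1, targets of Yap, were among those lower. As 1 KO group, 1 was higher and 3 were lower, so that the balance turned. Ccn2 was 359 and 359 CPM in WT Myc, 103 and 105 in KO1 Myc and 116 and 117 in KO2 Myc (log2FC −1.71, standard error 0.0423, edgeR, adjusted p = 2.15e-14). Ankrd1 had a log2FC of −1.11, and the tumor suppressor gene Dlc1 −1.18. The ligand gene Tgfb2 was 1.63 and 1.36 in WT Myc, 1.63 and 1.98 in KO1 Myc and 7.36 and 6.52 in KO2 Myc. Of 55 genes of extracellular matrix and integrins, 20 were higher and 12 lower, against 2 and 3 with the KO libraries as 1 group. The lines went apart in this list, with 8 higher and 18 lower in KO1 Myc and 28 higher and 10 lower in KO2 Myc. The basement membrane gene Nid2 was 2.47 and 3.25 CPM in WT Myc with 0, 0, 1 and 0 counts in the KO libraries. The collagen gene Col12a1 was 1.5 and 0.887 in WT Myc, 3.95 and 4.26 in KO1 Myc and 38.5 and 32.3 in KO2 Myc, and Tnc, the gene of tenascin C, had at most 1 count in WT Myc and 2.79 and 2.54 CPM in KO2 Myc.

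The cells held few markers of differentiated liver cells. Of 25 hepatocyte markers, 3 were in the table, and 2 of them were lower in the KO libraries: Afp, described above, and the liver factor Cebpa, from 17.7 and 16.3 CPM to between 4.2 and 5.69 (log2FC −1.82, standard error 0.127, edgeR, adjusted p = 8.97e-09). Of 13 markers of cholangiocytes and liver progenitors, 7 were tested and 4 were lower. Krt19, a duct keratin, was 327 and 255 in WT Myc, 135 and 139 in KO1 Myc and 48.9 and 49.6 in KO2 Myc, and the progenitor factor Sox9 was 80.6 and 70.3 against 28.7 to 42.9. Of 19 epithelial and mesenchymal genes, 4 were higher and 6 lower. The mesenchymal factor Twist1 had a log2FC of 2.53, the epithelial factor Grhl2 was 9.24 and 8.34 in WT Myc, 5.47 and 6.92 in KO1 Myc and 0.297 and 0.442 in KO2 Myc, and the claudin gene Cldn4 had at most 4 counts in any KO library. Of 14 fibroblast markers 8 were tested, 4 higher and 3 lower. Col1a2 was 119 and 123 in WT Myc, 3.78 and 3.89 in KO1 Myc and 91.2 and 86.9 in KO2 Myc, while Col3a1 was 28.6 and 34.8, then 35.2 and 40.6, then 354 and 341. These collagens separated the lines from each other more than KO from WT. Of 16 leukocyte markers 2 were tested. The macrophage marker Cd68 was 2.08 and 2.37 CPM in WT Myc and 3.15 to 6.30 in the KO libraries and was called higher, while Cd14 was 36.4 and 29.1 against 28.3 to 30.2 and was not called. Of 11 endothelial markers 1 was tested, Egfl7, at 3.12 and 2.60 against 3.83 to 5.08, which was called higher. Cd68 and Egfl7 were not called with the KO libraries as 1 group, and the part of other cells in these results was not tested. Fewer cells of a type and less RNA per cell cannot be told apart in bulk RNA. Among apoptosis regulators outside the p53 list, 3 of 23 were higher and 6 lower, with Casp12 at a log2FC of 0.97.

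Several of the list members named above were called in the mean of both lines but not with the 4 KO libraries as 1 group. They were Dna2, Rnaseh2a, Gins1, E2f8, Mki67, Foxm1, Cenpf, Psrc1, Ddit4, Prkdc, Cbx5 and Cbx1 among genes of the cell cycle, DNA damage and chromatin, Ifih1 and H2-K1 among immune genes, Pdk1, Nupr1, Stard4, Sdhc and Osgin1 among metabolic and stress genes, and Tgfb2, Tnc, Col12a1, Grhl2, Casp12, Krt19, Col1a2 and Col3a1.

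The same comparison with the Ctrl vector, which shares no library with the one under Myc, gave 3407 genes higher (26.0%) and 3870 lower (29.5%). Of the 4433 genes called under Myc, 3114 were also called under Ctrl (70.2% of the former and 42.8% of the latter), 2632 in the same direction and 482 in opposite directions. Across 13107 genes, Pearson's r of both log2FC was 0.69. The difference of the log2FC under Myc minus that under Ctrl was tested in the same fit, and 4543 genes were called, 2367 with a difference above 0 (18.1%) and 2176 below 0 (16.6%). With the KO libraries of each vector as 1 group, 1949 were called.

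The lists of the cell cycle and of the integrated stress response differed between Myc and Ctrl. Under Ctrl 24 of 35 DNA replication genes were higher in Trim33-KO cells (median 0.62), against 4 under Myc, and the difference was called below 0 for 24 members. For the E2f and DREAM list these counts were 74 of 91 under Ctrl (median 0.64) and 65 with a difference below 0, with E2f1 at a log2FC of 1.03 under Ctrl and 0.04 under Myc (difference −0.98, edgeR, adjusted p = 1.06e-06). In WT cells the median level of this list was −0.46 and −0.50 (log2, relative to WT Myc) with the Ctrl vector, while the KO libraries ranged from 0.06 to 0.35 with Ctrl and from −0.05 to 0.13 with Myc. The WT libraries thus differed more between vectors than the KO libraries did, which was not tested for the list as a whole. In the integrated stress response, 39 of 40 genes were lower under Ctrl (median −1.94), against 19 under Myc, and 37 had a difference above 0. Here the 4 KO Ctrl libraries lay at −1.33 to −1.40, against 0.55 and 0.52 in WT Ctrl and −0.13 to −0.55 in the KO Myc libraries. In the interferon list 9 genes were higher and 9 lower under Ctrl, and 16 had a difference below 0.

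**Figure D4:**
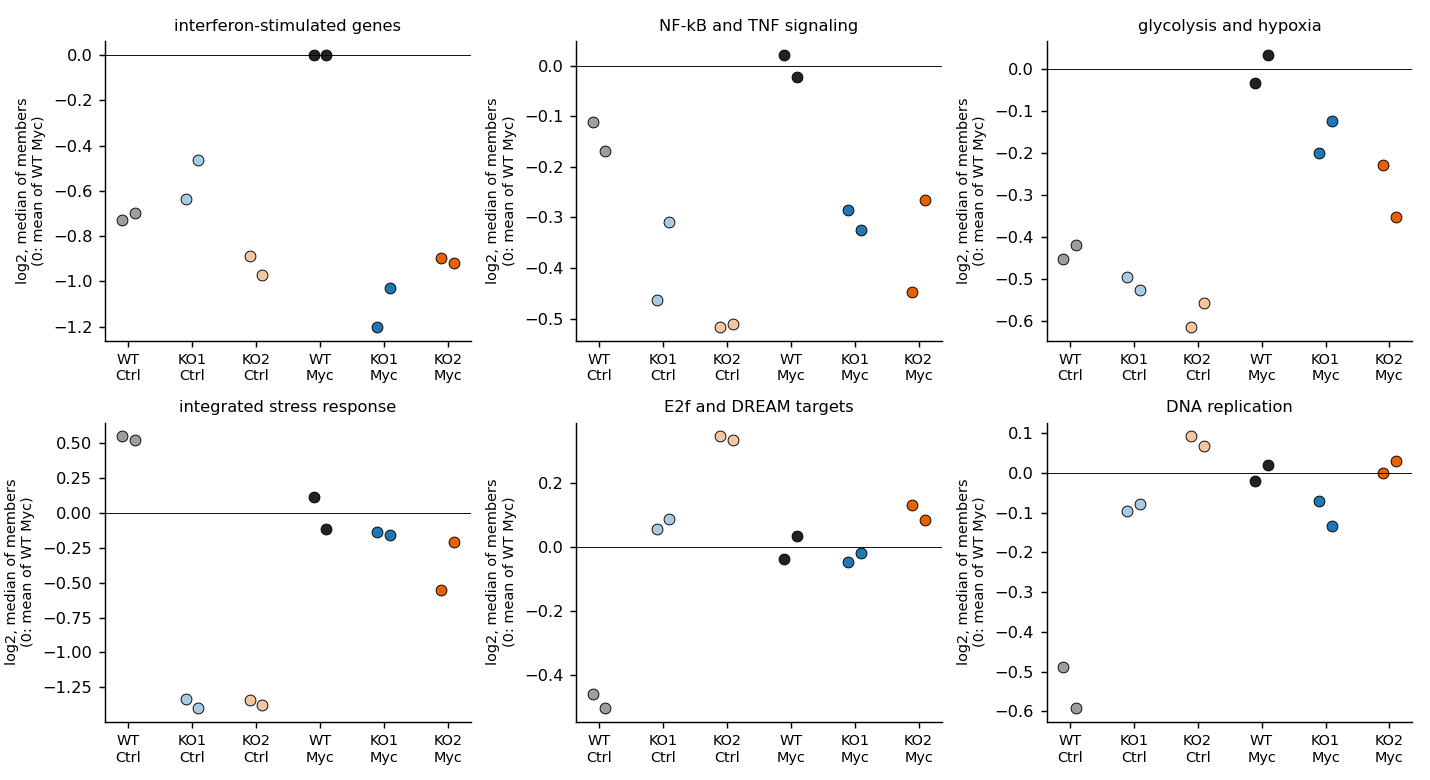
Median level of 6 gene lists in each of the 12 libraries, as log2 relative to the mean of both WT Myc libraries, with 2 points per labelled group. WT Myc lies above every other group in the interferon list, whereas in the DNA replication and E2f lists the WT Ctrl libraries lie lowest, at −0.46 to −0.59, and the KO Myc libraries lie from −0.13 to 0.13.

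Of the 8 single genes with the largest differences between the vectors, Cth and Atoh8 had log2FC of −0.07 and −0.12 under Myc, while Zscan4c, Zscan4f and Sprr1b had 2.33, 2.24 and 2.16. Cth, an enzyme of cysteine synthesis, was 43.4 and 29.1 CPM in WT Myc and 20.9 to 43.7 in the KO Myc libraries, but 200 and 204 in WT Ctrl and 4.10 to 4.70 in KO Ctrl (difference 5.45, edgeR, adjusted p = 1.6e-10). The mitochondrial folate enzyme gene Aldh1l2 had a difference of 4.02. The early embryonic gene Zscan4c was 0.585 and 0.828 in WT Myc, 0.988 and 1.42 in KO1 Myc and 11.8 and 9.94 in KO2 Myc (difference 4.37), and Zscan4f 4.25. These are near-identical copies whose reads cannot be assigned with certainty, and in the list of 10 such two-cell stage genes 6 were called higher and 1 lower, 0 in KO1 Myc alone and 9 higher and 1 lower in KO2 Myc alone. As 1 KO group 0 were called (edgeR, adjusted p = 0.0437 for Zscan4c and 0.0495 for Zscan4f). In the opposite direction, Sod3, an extracellular superoxide dismutase, had 0 counts in WT Ctrl and 25.6 and 21.6 CPM in KO1 Ctrl, so that its fitted difference of −8.97 is no bound. Under Myc it was 0.976 and 0.946 in WT, 0.581 and 0.679 in KO1 Myc and 4.86 and 4.2 in KO2 Myc. Rasl11a had a difference of −3.51, Atoh8 of −3.47 and the cornified envelope gene Sprr1b of −3.39. With the KO libraries of each vector as 1 group, the difference was not called for Zscan4f, Sod3 and Sprr1b (edgeR, adjusted p = 0.0113, 0.0984 and 0.0147).

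The calls were unevenly spread over chromosomes. Of 13107 genes, 12419 were placed on a chromosome by their symbol in the GENCODE annotation of mm9. On chromosome 18, 151 of 308 genes (49.0%) were called higher and 16 (5.19%) lower, with a median log2FC of 0.30, and 0.33 and 0.27 in KO1 Myc and KO2 Myc alone. On chromosome 16, 144 of 380 genes (37.9%) were higher (median 0.20), and on chromosome 13, 131 of 521 (25.1%, median 0.12). Lower genes prevailed on chromosome 2, with 312 of 1006 (31.0%, median −0.13), and chromosome 8, with 190 of 659 (28.8%, median −0.13). With the Ctrl vector the medians were 0.22, 0.18 and 0.17 for chromosomes 18, 16 and 13, and −0.20 and −0.10 for chromosomes 2 and 8. On chromosomes 1, 10 and X the lines differed, with medians of −0.19 in KO1 Myc and 0.02 in KO2 Myc for chromosome 1, −0.04 and 0.17 for chromosome 10, and 0.05 and −0.15 for the X chromosome. DNA copy number was not measured here.

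**Figure D5:**
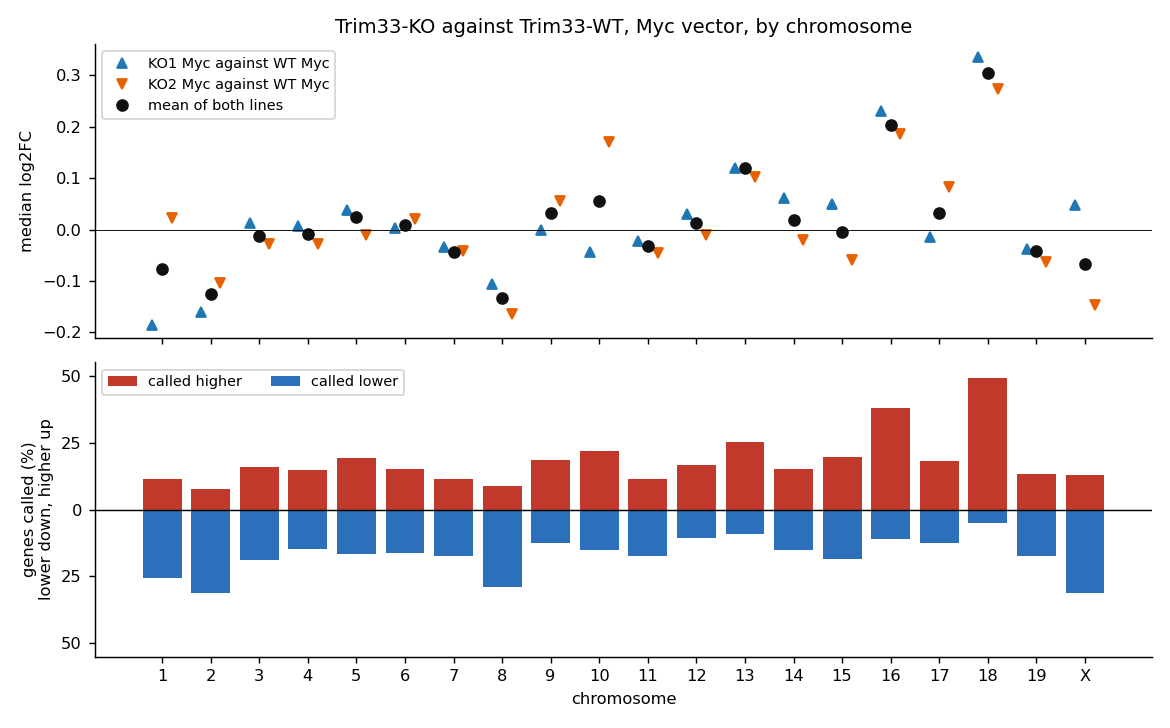
Top, median log2FC of the genes of each chromosome under Myc for the mean of both lines (circles) and each line alone (triangles). Bottom, share of genes called higher (red, up) and lower (blue, down) per chromosome: chromosome 18 has 49.0% called higher, and chromosome 2 has 31.0% called lower.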

How the data were processed

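RNA was sequenced from 12 libraries of the Myc experiment. Per the labels, the authors aligned reads to mm9 with STAR 2.5.4 and tested with edgeR 3.26.8, and the deposited counts are whole, unnormalized reads per gene. The counting tool is not given in the sources used here. Tables of the authors' own comparisons (log2 fold changes and p-values) and the hydroxyurea counts were not used. Counts were fitted with edgeR 4.0.16 (limma 3.58.1, R 4.3.3): all 12 libraries, TMM, 1 coefficient per group, quasi-likelihood test, Benjamini-Hochberg adjustment over 13107 genes, threshold 0.01. filterByExpr removed 0 genes, and 298 genes lack a symbol. Alternatives were DESeq2 1.42.0, other scaling and filters, 1 KO group, each line alone, a replicate block and leaving out each library. Replicates differed by more than counting noise, by 2.21 times in KO1 Ctrl to 11.0 times in WT Myc (squared difference per gene, counting noise being 1). The procedure was tested on simulated data. Members and lists were chosen with earlier results of these data known. Named genes are the 12 largest rises and 12 largest falls called in both lines, without overlap and with a mean of at least 5 CPM, the 4 largest differences each way between vectors, 17 genes of the study's topic and up to 4 called members per list. Counting intervals (95%, exact) and floors (3 counts) cover counting error only. Some genes the rule names are not reported here.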

Additional observations from a re-analysis of the deposited data

Results flagged for a closer look

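In 4543 of 13107 genes the difference between Trim33-KO and Trim33-WT cells was not the same under Myc as under Ctrl. The test was edgeR's, for the interaction of knockout and vector, at an adjusted p-value below 0.01. It was called above 0 in 18.1% of all genes tested and below 0 in 16.6%. Among the called genes were 60 of 120 named genes. Some named genes were chosen for the largest differences between the vectors, which raises this count by design. It therefore cannot show whether named genes differed more often than all genes. Values below are the log2FC under Myc minus that under Ctrl.

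For the genes chosen for the study's topic, the difference was 0.75 for Trim33, 1.38 for Myc, −0.38 for Trim28 and −0.49 for Cdkn2a. It was −0.98 for E2f1, 0.30 for Mcm2, −0.80 for Mcm5, −1.30 for Cdc6, −0.68 for Pcna and −1.50 for Rrm2. Other genes of replication and division had −0.32 (Rfc1), −1.71 (Dna2), −0.76 (Gins1), −0.82 (Kif20a), −0.78 (E2f8), −0.76 (Mki67), −0.34 (Foxm1) and 0.69 (Atr). The p53 targets Psrc1, Ptp4a3 and Cdkn1a had −0.64, −0.50 and 0.42, and the ribosome biogenesis genes Tcof1, Heatr1 and Polr1a had 0.34, 0.77 and 0.46.

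The largest differences above 0 were 5.45 for Cth, 4.37 for Zscan4c, 4.25 for Zscan4f and 4.02 for Aldh1l2 among genes with a mean of at least 5 CPM, and Zscan4d, a lower copy of the same family, had 4.65. Below 0 they were −8.97 for Sod3, −3.51 for Rasl11a, −3.47 for Atoh8 and −3.39 for Sprr1b. The value of Sod3 depends on the prior count, since WT Ctrl had 0 counts, and that of Pramef12, −2.79, does too, since KO2 Myc had 0. Among the 12 largest rises and 12 largest falls, Tnfrsf26 had −1.24 and AI662270 −1.87.

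Among immune and signaling genes the differences were 0.52 for H2-D1, 1.01 for H2-K1, −1.42 for Cxcl10, −4.27 for Cxcl5, −0.34 for Junb and 0.87 for Dusp4. Stress and metabolic genes had 2.36 (Gdf15), 0.61 (Nupr1), −0.77 (Tm7sf2), −1.12 (Stard4), −1.39 (Ankrd37), 0.42 (Pfkp), −0.43 (Ndufa4) and −0.29 (Sdhc). Genes of the Hippo-Yap list had −1.46 (Ccn2), 0.82 (Dlc1) and 0.56 (Ankrd1). Epithelial, liver and matrix genes had −1.44 (Grhl2), −0.82 (Cebpa), 0.62 (Krt19), 0.80 (Sox9), −1.25 (Col1a2) and −2.50 (Col3a1), and Casp12 had −1.82.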

How the results depend on the processing

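With the 4 KO libraries as 1 group, 1321 genes were called (676 higher, 645 lower), the difference between vectors was called in 1949, and the counts of called members were 2 for DNA replication, 2 for E2f and DREAM targets and 16 (lower) for interferon genes. An absolute log2FC of at least 1 gave 917 (353 and 564), 1046, 0, 0 and 18, and an adjusted p-value below 0.05 gave 19 for DNA replication and 39 for E2f. The 6 Myc libraries alone gave 3 and 9 (the difference between vectors cannot be fitted there), and DESeq2 gave 5 for DNA replication. KO1 Myc alone gave 4 and 14, medians of −0.089 (DNA replication), −0.036 (E2f) and −1.26 (interferon), and Trim33 at 0.40. KO2 Myc alone gave an E2f median of 0.10 and Trim33 at −0.20. At least 5 CPM in every library gave 10 interferon genes lower, with a median of −0.63. Some genes that were not called changed sign: Trim28 to 0.036, Cdkn2a to −0.13 and Rbl1 to −0.10 in KO1 Myc, E2f1 to −0.000339 and Recql to 0.072 in KO2 Myc, and Trim28 to 0.000433 with upper-quartile scaling. Gsta2, called lower at −1.59, had 0.23 in KO1 Myc and −3.42 in KO2 Myc, and lost its call with 1 KO group and without replicate 2 of WT Myc.

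Leaving out each library in turn gave 3340 to 5120 called genes, 3 to 13 DNA replication and 14 to 35 E2f members, medians of 0.00557 to 0.092 (E2f) and −0.999 to −0.84 (interferon), and Trim33 from −0.013 to 0.23. The ranges were −0.22 to 0.032 for Nras, −0.13 to 0.00146 for E2f4, −0.11 to 0.19 for Rbl1, −0.11 to 0.18 for Cdkn2a, −0.17 to 0.12 for Recql and −0.011 to 0.00495 for Trim28. The cause of these changes was not tested.

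Replicate numbers did not pair the samples: the correlation of deviations from the group means was 0.34 for WT and KO1 Myc, −0.26 for WT and KO2 Myc and −0.08 for KO1 and KO2 Myc. A replicate block gave 4570 called genes (2166 higher, 2404 lower), a difference in 4639, 11, 22 and 27 members of the 3 lists and Trim33 at 0.11, and among the 160 single values only Cbx1 lost its call. DESeq2's size factors moved no call among those 160. With 1 WT line and 2 KO lines, differences between clones or cultures and the effect of Trim33 loss cannot be told apart.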
